A study of Mus musculus with 96 samples.

Results

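Acute phase genes and the abundant secretory genes of the hepatocyte were examined as a set of 10 genes in the liver of sleep-deprived and control mice, and then in 3 other organs. The set held Saa1, Saa2, Orm1, Hp, Hpx, Lcn2, Hamp, Serpina3k, Ahsg and Alb, chosen by symbol, and all 10 were found among the 54833 features of the count table. The animals were young wild-type C57BL/6 mice, which the study's methods give as males, and liver, kidney, forebrain and cerebellum were taken in constant darkness. Nothing was done to the control mice (CON), while the sleep-deprived animals (SD) had to walk in a slowly turning drum for 10 h of their resting phase, with food and water at hand. Samples followed at 6 circadian times (CT), CT4, CT8, CT12, CT16, CT20 and CT24, with 2 libraries for each tissue, condition and time, so that each tissue had 12 CON and 12 SD libraries. The drum forces movement as well as wakefulness, and no group walked without losing sleep, so the 2 cannot be told apart here. The study's methods call the 2 libraries of a group biological repeats, and the labels do not tie them to animals, so p-values measure the spread between libraries.

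The acute phase response is the change in the proteins that hepatocytes release into blood during infection, injury or other stress. Interleukin-6 and interleukin-1 reach the hepatocyte and act through STAT3, NF-kappaB and C/EBP factors, which raise the positive acute phase genes, while albumin and fetuin-A are known as negative acute phase proteins. Saa1 and Saa2 encode serum amyloid A, an apolipoprotein of high density lipoprotein that rises steeply in inflammation. Orm1 encodes alpha-1-acid glycoprotein, Hp encodes haptoglobin, which binds free hemoglobin, and Hpx encodes hemopexin, which binds heme. Lcn2 encodes lipocalin-2, which holds bacterial iron carriers and is made by neutrophils as well as by hepatocytes. Hamp encodes hepcidin, the hormone that closes the iron exporter ferroportin and that is driven by bone morphogenetic protein (BMP) signals and by STAT3. Serpina3k encodes a serine protease inhibitor of a gene family that has expanded in the mouse, Ahsg encodes fetuin-A, and Alb encodes albumin.

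Saa1 (chromosome 7, 46740497 to 46742980, minus strand) and Saa2 (chromosome 7, 46751790 to 46754313, plus strand) are neighbours that face away from each other on GRCm38, with positions from GENCODE M21. Their coding sequences of 366 bases differed at 18 bases and were 95.1% identical, with a longest shared run of 73 bases, so a read can be placed on one of the genes only where it covers a difference. The 60-base coding window with the most differences, positions 90 to 149 counted from the start codon, is shown as an example of where reads of these genes can be told apart. Capitals mark the 7 bases that differ.
Saa1: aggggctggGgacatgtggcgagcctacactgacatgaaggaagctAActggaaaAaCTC
Saa2: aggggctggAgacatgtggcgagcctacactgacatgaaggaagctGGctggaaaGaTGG
No stretch of 100 bases of the main Saa1 or Saa2 transcript occurred in another gene. Orm1 shared 6.95% of such stretches with Orm2 and Serpina3k shared 4.85% with Serpina3m, while the other members shared none. Reads that map equally well to several places had been removed before counting, which can lower the counts of Orm1 and Serpina3k, and their levels are uncertain.

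The promoters of Saa1, Saa2 and Lcn2, the members that varied most between libraries, and of Hamp and Alb for contrast, are shown next. RefSeq promoters on GRCm38.p6 were at hand for Saa1, Saa2, Lcn2, Hamp, Alb, Hpx and Ahsg, and the 250 bases before the transcript start were searched on both strands. Capitals mark matches to the C/EBP pattern TTGCNNAA, to the D-box pattern TTANGTAA bound by the clock output factors DBP, TEF and HLF, to the STAT3 pattern TTCNNNGAA, or to the BMP element GGCGCC. None of the matches within a promoter overlapped.
Saa1, chr7:46742981-46743230, minus strand: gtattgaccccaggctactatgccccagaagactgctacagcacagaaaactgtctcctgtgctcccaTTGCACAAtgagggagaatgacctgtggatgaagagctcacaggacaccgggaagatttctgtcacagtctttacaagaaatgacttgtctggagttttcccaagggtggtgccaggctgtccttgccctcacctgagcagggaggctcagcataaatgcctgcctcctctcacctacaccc
Saa2, chr7:46751583-46751832, plus strand: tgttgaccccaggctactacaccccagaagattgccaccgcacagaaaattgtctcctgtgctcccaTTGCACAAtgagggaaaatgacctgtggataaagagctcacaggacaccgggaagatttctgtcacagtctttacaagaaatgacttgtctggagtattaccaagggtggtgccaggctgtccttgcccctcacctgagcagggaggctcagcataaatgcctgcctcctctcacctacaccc
Lcn2, chr2:32387740-32387989, minus strand: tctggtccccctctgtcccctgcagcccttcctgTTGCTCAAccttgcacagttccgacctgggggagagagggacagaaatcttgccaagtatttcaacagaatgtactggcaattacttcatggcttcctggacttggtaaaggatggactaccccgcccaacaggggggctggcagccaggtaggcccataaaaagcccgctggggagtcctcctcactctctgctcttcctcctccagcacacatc
Hamp, chr7:30944030-30944279, minus strand: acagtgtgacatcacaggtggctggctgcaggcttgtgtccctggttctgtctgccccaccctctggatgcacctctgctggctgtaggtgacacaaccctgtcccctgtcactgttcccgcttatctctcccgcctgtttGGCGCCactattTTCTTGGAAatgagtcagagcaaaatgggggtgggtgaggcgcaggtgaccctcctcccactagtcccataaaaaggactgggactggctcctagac
Alb, chr5:90460620-90460869, plus strand: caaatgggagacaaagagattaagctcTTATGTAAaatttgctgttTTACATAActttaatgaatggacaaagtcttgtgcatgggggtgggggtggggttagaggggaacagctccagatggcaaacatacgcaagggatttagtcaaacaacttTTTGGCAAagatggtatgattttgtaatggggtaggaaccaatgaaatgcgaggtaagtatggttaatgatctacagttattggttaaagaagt
The Saa1 and Saa2 promoters were 94.8% identical over their 250 bases, while those of Saa1 and Lcn2 were 44.6% identical. The C/EBP pattern was found in 6 of the 7 promoters, all but Hamp, and in 9.56% of 32851 promoters of the same length. The Alb promoter held 2 D-box matches, and 2.06% of all promoters held at least 1. The Hamp promoter held 1 STAT3 match and 1 BMP element, patterns found in 7.02% and 9.59% of all promoters. The NF-kappaB pattern, the E-box CACGTG and the HNF1 core had no match in the 7 promoters and were found in 7.25%, 6.02% and 0.371% of all promoters. A match describes letters only and is no measure of binding.

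Depth, taken as the summed counts of a library, lay between 24.76 and 58.49 over the 96 libraries and between 32.03 and 48.85 in the liver, in units of 1000000 counts. Levels are given as CPM, the count of a gene over the total of its library, times 1000000. In the liver, 3592 of 19708 genes tested passed an adjusted p of 0.05 between SD and CON averaged over time, 1857 higher (9.42%) and 1735 lower (8.8%), with scaling by trimmed means of M values (TMM). With library sizes alone these counts were 358 (1.82%) and 3763 (19.1%), and the median log2 difference over all genes moved from 0.01 to -0.13. This shift applies to every member below, and both scalings are given where they part. Of the 10 hepatocyte markers, 7 were called higher in SD and 0 lower under TMM, and 5 and 0 with library sizes alone, and their summed level was 35850 to 45029 CPM in CON and 39822 to 50041 CPM in SD. The labels of the kidney libraries conflicted with their titles in 20 of 24 cases, and the titles were used.

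The 10 genes lay far apart in level in control liver, as CPM per kilobase of the main transcript. Alb (chromosome 5, 90460897 to 90476602) stood alone at the top, with a mean of 31354 CPM per kb. Ahsg (chromosome 16, 22891277 to 22899449) followed at 5036 CPM per kb, Hpx (chromosome 7, 105591613 to 105600137) at 4490 and Hp (chromosome 8, 109575128 to 109579172) at 2313. Ahsg and Hpx overlapped over the 12 CON libraries, as did Hpx and Hp. Orm1 (chromosome 4, 63344560 to 63348163) had 753 CPM per kb, Hamp (chromosome 7, 30942368 to 30944032) 415.0 and Saa1 285. Serpina3k (chromosome 12, 104338486 to 104346144) had 108 CPM per kb, Saa2 48.6 and Lcn2 (chromosome 2, 32384633 to 32388252) 40.8. Hp and Orm1 did not overlap, while each gene from Orm1 down overlapped with the next in this order. Together the 10 genes took 8.23% ± 0.626 of the liver libraries of CON mice and 8.64% ± 0.528 of those of SD mice (standard deviation, n = 12), most of it from Alb with 6.38% ± 0.639 and 6.81% ± 0.417. The mean share of the 10 genes was higher in SD at 5 of 6 time points, and that of the 9 genes without Alb at 1 of 6.

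The members differed in how much they varied between libraries. Saa1 and Saa2, with ratios of 18.6 and 24.02 between the highest and the lowest of the 24 liver libraries, varied more than 99.4% and 99.6% of 10266 genes with a mean of at least 5 CPM. Lcn2 had a ratio of 11.2 and Hamp of 6.80, while Alb and Ahsg, at 1.37 and 1.45, varied less than most genes. The median gene had a ratio of 1.83. Libraries of the same condition and time differed as well. The larger of the 2 libraries of a group had a median of 2.82 times the Saa2 level of the other over the 12 groups, 1.73 times the Saa1 level and 1.42 times the Lcn2 level, against 1.10 times for the median gene and 1.04 times for Alb. The largest gap within a group was 7.04 times, for Lcn2 at SD CT20.

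**Figure D1:**
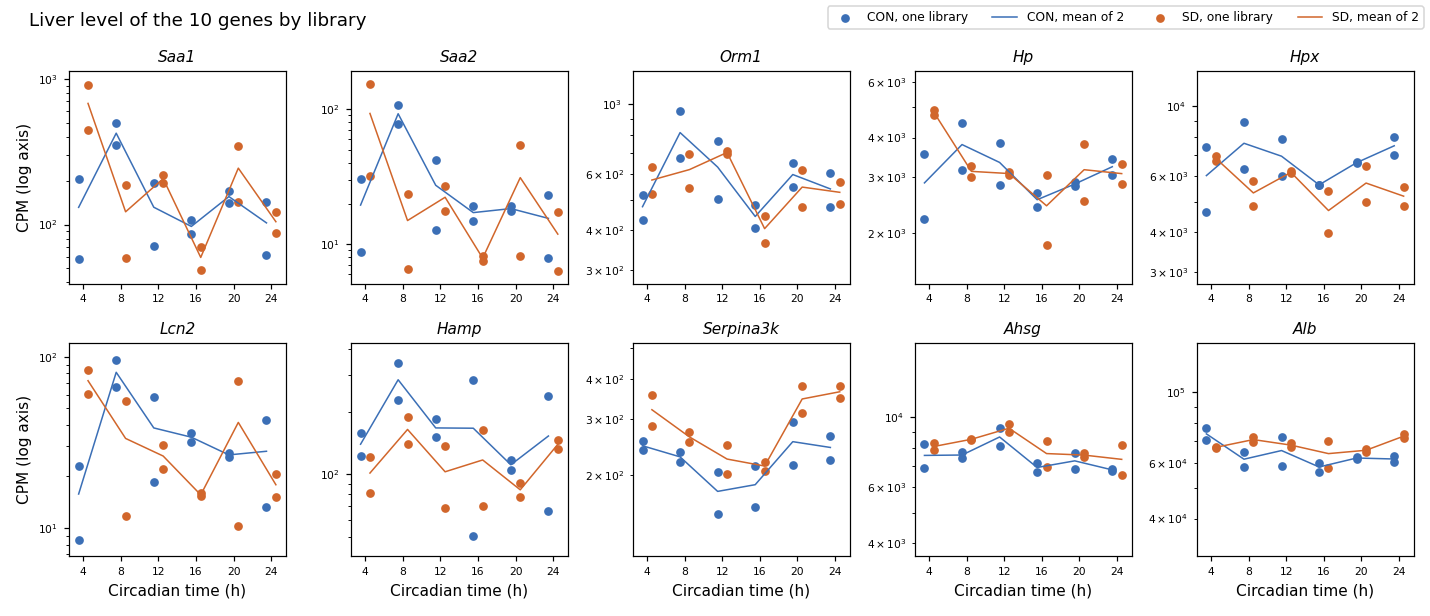
Level of each of the 10 genes in liver, in CPM on a log axis, against circadian time in h. Points are single libraries and lines join the means of 2 libraries. Saa1, Saa2 and Lcn2 spread over 11.2 to 24.02 fold, with SD above CON at CT4 and below it at CT8, while Serpina3k means lay higher in SD at all 6 times.

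The first question was whether sleep deprivation moved these genes on average over all 6 time points. In the liver 3 of the 10 rose, Serpina3k, Ahsg and Alb, and 0 fell, beside 9.42% of all genes called higher and 8.8% called lower. The inducible acute phase genes Saa1, Saa2, Orm1, Hp, Hpx, Lcn2 and Hamp did not pass the test. The median log2 difference over the 10 genes was 0.15, beside 0.01 over all genes.

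Serpina3k had the smallest p of the 10 genes. Its lowest, median and highest CON libraries were at 150.5, 221 and 293 CPM, and those of SD at 200.5, 278 and 381 CPM. The groups overlapped over the day, but at single times the SD mean was higher at 6 of 6, and both SD libraries lay above both CON libraries at 4 of 6 in CPM. Of all genes 10.7%, 11.3%, 7.92%, 11.6%, 12.5% and 11.4% lay so at CT4 to CT24. The averaged difference was 1.41-fold, or 0.50 ± 0.08 on the log2 scale (edgeR quasi-likelihood test, estimate ± SE, adjusted p = 0.000149), and it ranked 167 among 19708 genes by p. With library sizes alone it was 0.36 ± 0.07 (edgeR, adjusted p = 0.000827). Reads that map equally well to Serpina3k and Serpina3m had been removed before counting. The log2 difference of Serpina3m itself was 0.33 ± 0.08 (edgeR, adjusted p = 0.00757).

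Ahsg lay at 6692, 7312 and 9208 CPM in CON and at 6548, 8214 and 9498 CPM in SD, again as the lowest, median and highest library. The difference was 0.25 ± 0.06 on the log2 scale (edgeR, adjusted p = 0.00451). Both SD libraries were above both CON libraries at 5 of 6 times after TMM scaling but at 1 of 6 in plain CPM, while 20.6%, 23.3%, 25.0%, 18.6%, 22.5% and 21.9% of all genes lay so at CT4 to CT24 after TMM scaling. Under library sizes alone Ahsg did not pass, at 0.11 ± 0.04 (edgeR, adjusted p = 0.0734). Alb lay at 56244, 62036 and 77101 CPM in CON and at 57858, 68229 and 73784 CPM in SD. Its difference was 0.24 ± 0.07 (edgeR, adjusted p = 0.0203), which also failed with library sizes alone, at 0.10 ± 0.05 (edgeR, adjusted p = 0.148). The SD mean of Alb was higher at 5 of 6 times under both scalings. Both SD libraries lay above both CON libraries at 4 of 6 times after TMM scaling and at 3 of 6 in plain CPM, beside the shares of all genes given above. At CT4 both lay below in plain CPM, as did 34.8% of all genes, and the log2 difference was -0.03 ± 0.18 under TMM. Serpina3k was thus called under both scalings, and Ahsg and Alb only under TMM, which on average raised the SD libraries relative to CON (mean log2 factors of -0.07 and 0.07). SD CT16 replicate 1 stood apart in this, with a log2 factor of 0.23, above 0 like those of both CON CT16 libraries (0.23 and 0.21), while the other 11 SD factors were below 0. Without it the same 3 members were called. Without the CT4 and CT8 libraries, an alternative chosen after seeing the data, 1 member (Serpina3k) passed, with adjusted p of 0.0894 for Ahsg and 0.0879 for Alb (edgeR).

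The heme and hemoglobin carriers Hpx and Hp were not called under TMM. Hpx lay at 4647, 6631 and 8918 CPM in CON and at 3987, 5676 and 6980 CPM in SD, and its SD mean was lower at 5 of 6 times in plain CPM and at 4 of 6 after TMM scaling. Its log2 difference was -0.11 ± 0.10 under TMM (edgeR, adjusted p = 0.491) and -0.25 ± 0.09 with library sizes alone (edgeR, adjusted p = 0.0490), where it was the member called lower. Hp lay at 2212, 2980 and 4445 CPM in CON and at 1837, 3082 and 4899 CPM in SD, with a log2 difference of 0.20 ± 0.12 (edgeR, adjusted p = 0.275). Orm1 had a median of 533 CPM in CON and 557 CPM in SD, and its log2 difference of 0.10 ± 0.10 (edgeR, adjusted p = 0.554) turned to -0.04 ± 0.09 with library sizes alone.

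Hamp, the iron hormone, had the lowest log2 difference of the 10 genes under both scalings, although it did not pass the test. Its CON libraries ran from 50.2 CPM over a median of 154 to 342 CPM, and its SD libraries from 68.8 over 127 to 189 CPM. The SD mean was lower at 6 of 6 times in plain CPM, with both SD libraries below both CON libraries at 4 of 6, while 34.8%, 32.8%, 42.8%, 24.1%, 32.5% and 35.4% of all genes lay so at CT4 to CT24. After TMM scaling these counts were 5 of 6 and 2 of 6, and the shares of all genes 21.7%, 19.8%, 20.4%, 16.3%, 21.7% and 23.6%. The log2 difference was -0.37 ± 0.21 (edgeR, adjusted p = 0.246) under TMM and -0.50 ± 0.22 (edgeR, adjusted p = 0.110) with library sizes alone. At CON CT16 the 2 libraries held 283 and 50.2 CPM, a gap of 5.63 times.

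For Saa1, Saa2 and Lcn2 the standard errors were larger than the averaged differences. Saa1 differed by 0.33 ± 0.37 (edgeR, adjusted p = 0.595), Saa2 by -0.10 ± 0.47 (edgeR, adjusted p = 0.922) and Lcn2 by -0.05 ± 0.39 (edgeR, adjusted p = 0.956). The sign for Saa2 turned on leaving out any of 4 libraries and that for Lcn2 on leaving out any of 10. The Saa1 difference stayed above 0 whichever library was left out, from 0.12 to 0.53. An averaged change of these genes was not detectable against the spread between libraries.

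**Figure D2:**
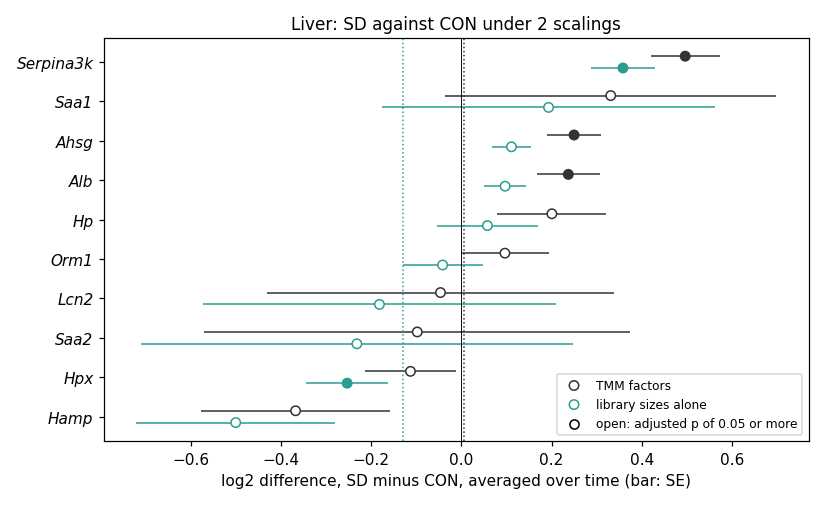
Difference between SD and CON in liver averaged over time, as log2 (points) with SE (bars), under TMM factors and with library sizes alone. Filled points passed an adjusted p of 0.05, and dotted lines mark the median of all genes. Serpina3k is filled under both scalings, and Ahsg and Alb under TMM only.

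Single time points were taken up next, because an average hides changes that go opposite ways. At CT4 and CT8 the differences of Saa1, Saa2 and Lcn2 had opposite signs. None was called by edgeR, and DESeq2 called Saa1 at CT4 (adjusted p = 0.0365). At CT4 the CON libraries held 57.9 and 204 CPM of Saa1 and the SD libraries 910.0 and 448 CPM, and at CT8 the CON libraries held 351 and 497 CPM and the SD libraries 59.2 and 185 CPM. Both SD libraries thus lay above both CON libraries at CT4 and below both at CT8. The log2 difference was 2.47 ± 0.64 at CT4 (edgeR, adjusted p = 0.148) and -1.66 ± 0.63 at CT8 (edgeR, adjusted p = 0.266).

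Saa2 had the same order of groups as its neighbour. At CT4 it held 8.72 and 30.3 CPM in CON and 153 and 32.1 CPM in SD, and at CT8 76.8 and 108 CPM in CON and 6.56 and 23.4 CPM in SD. Its log2 difference was 2.35 ± 0.87 at CT4 and -2.49 ± 0.88 at CT8 (edgeR, adjusted p = 0.346 and 0.226). Lcn2 held 8.53 and 23.0 CPM in CON and 84.0 and 60.9 CPM in SD at CT4, and 66.3 and 95.9 CPM in CON and 11.7 and 55.0 CPM in SD at CT8. Its log2 difference was 2.30 ± 0.78 at CT4 and -1.15 ± 0.75 at CT8 (edgeR, adjusted p = 0.296 and 0.586). For these 3 genes the groups did not overlap at either time, where 10.7% of all genes lay with both SD libraries above at CT4 and 32.8% with both below at CT8, in CPM.

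The other inducible members differed less at CT4. The log2 difference of Hamp was -0.34 ± 0.56 at CT4 and -0.67 ± 0.56 at CT8 (edgeR, adjusted p = 0.932 and 0.709). Hp held 2212 and 3548 CPM in CON and 4899 and 4714 CPM in SD at CT4, a log2 difference of 0.85 ± 0.28 (edgeR, adjusted p = 0.289). Orm1 and Hpx differed by 0.39 ± 0.24 and 0.29 ± 0.24 at CT4, with overlapping Hpx libraries, and by -0.25 ± 0.24 and -0.39 ± 0.24 at CT8 (edgeR, adjusted p from 0.566 to 0.812). Of the 10 members 0 were called at any of the 6 times by edgeR, where the count over all genes was 2 at CT4 (0.0101%), 80 at CT8 (0.406%), 0 at CT12, CT16 and CT20 (0.0%), and 47 at CT24 (0.238%). At an unadjusted p of 0.05, 5 members passed at CT4, 2 at CT8, 1 each at CT12, CT20 and CT24, and 0 at CT16, where 1812, 2430, 1509, 1573, 2619 and 2726 of the 19708 genes did, in the same order of times. DESeq2 called 2 of these values, Saa1 at CT4, beside 0.954% of all genes, and Serpina3k at CT24 (DESeq2, adjusted p = 0.0155), beside 2.39%. Leaving out a library leaves 1 library at its condition and time, so calls at single times from such fits are not counted here.

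**Figure D3:**
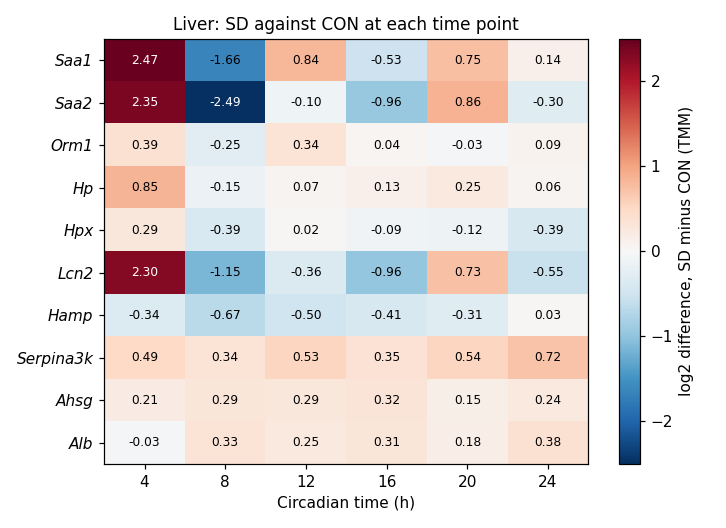
Log2 difference between SD and CON in liver for the 10 genes (rows) at 6 circadian times (columns, h), with TMM factors, as printed in each cell. Saa1, Saa2 and Lcn2 turn from 2.47, 2.35 and 2.30 at CT4 to -1.66, -2.49 and -1.15 at CT8, while every Serpina3k cell is above 0.

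All 6 times were then tested together, which finds a gene that changes at some times or in opposite directions. Serpina3k was the 1 member called (edgeR, 6 contrasts together, adjusted p = 0.0326), beside 3.56% of all genes. Saa1 had an adjusted p of 0.106, and Saa2 and Lcn2 had 0.239 and 0.346. Scaled by library sizes alone, Serpina3k did not pass (edgeR, adjusted p = 0.0811), and neither did it when any of 10 single libraries was left out, which were CON CT4 replicates 1 and 2, CON CT8, CT12 and CT24 replicate 2, SD CT4, CT8 and CT12 replicate 1, and SD CT20 and CT24 replicate 2. With a library left out 1 library stands for its condition and time, so members gained in such fits are not counted. DESeq2 called 4 members, Ahsg, Alb, Saa1 and Serpina3k, beside 10.2% of all genes.

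Time of day within each condition was examined with the JTK_CYCLE procedure, since many hepatocyte secretory genes follow the clock or feeding. In both conditions 0 of 10 members were called (adjusted p of 0.05), beside 29 of all genes in CON (0.147%) and 347 in SD (1.76%). The unadjusted p was under 0.05 for 2490 genes in CON and for 3218 in SD. Serpina3k came closest, with a p of 0.0531 in CON and 0.00439 in SD (JTK_CYCLE, exact null over 12 libraries, adjusted p = 0.304 and 0.0836). Its CON means ran from 177 CPM at CT12 to 254 CPM at CT20, and its SD means from 213 CPM at CT16 to 365 CPM at CT24. A fit of cosine and sine terms in edgeR called Serpina3k in SD (adjusted p = 0.00501) and not in CON (adjusted p = 0.0530), beside 11.8% and 8.79% of all genes.

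A difference in rhythm between the conditions was not detected for any member. The test of the cosine and sine terms between SD and CON called 0 of 10 members and 0 of 19708 genes (edgeR), with 0 members and 722 genes at an unadjusted p of 0.05. The call for Serpina3k in SD and its absence in CON therefore do not show that the rhythm differed (edgeR, adjusted p = 0.9997). For Saa1 the highest group mean was at CT8 in CON, with 424 CPM, and at CT4 in SD, with 679 CPM, and the lowest was at CT16 in both, with 97.0 and 59.4 CPM. Hp, Saa2, Lcn2 and Hpx had their highest means at the same times as Saa1. Hamp was highest at CT8 and lowest at CT20 in both conditions, with 285 and 111 CPM in CON and 164 and 84.0 CPM in SD.

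The levels of the inducible members other than Hamp were correlated from library to library. Over the 24 liver libraries, on log2 TMM-scaled CPM, Saa1 followed Saa2 (Pearson r = 0.919, Spearman rho = 0.891), Lcn2 (r = 0.849, rho = 0.816), Hp (r = 0.805, rho = 0.721), Orm1 (r = 0.748, rho = 0.770) and Hpx (r = 0.712, rho = 0.704). In each of the 5 relations both permutation p-values were at most 0.000257 after adjustment over 15 relations (n = 24, smallest p the permutations can give 1e-05), and r was 0.668 to 0.881 without the 2 libraries farthest from the median. The relation held within CON (r from 0.622 to 0.964) and within SD (r from 0.677 to 0.938). It also held between the 2 libraries of a group after the group means were removed, with r from 0.707 to 0.926. The points share the depth and scaling of their library.

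For Hamp, Serpina3k, Ahsg and Alb no such relation to Saa1 passed the test. Saa1 had an r of -0.02 with Hamp (permutation test, n = 24, adjusted p = 0.931), 0.373 with Serpina3k (adjusted p = 0.123), 0.360 with Ahsg (adjusted p = 0.126) and 0.219 with Alb (adjusted p = 0.375). The rho values of these relations were -0.166, 0.354, 0.336 and 0.144, with adjusted permutation p from 0.152 to 0.622. A p above 0.05 does not show that they are unrelated. Among the genes most like each member by Spearman correlation over the 24 libraries, out of 10257 with at least 5 CPM, Hp stood nearest to Pmfbp1 (rho = 0.890), Itih4 (0.855) and Lrg1 (0.848), of which Itih4 and Lrg1 are acute phase genes themselves. Saa1 stood nearest to Pmfbp1 (rho = 0.750), C4b (0.738), a complement gene, and Antxr2 (0.737). Orm1 stood nearest to Ambp (0.857), which encodes a further plasma protein, Cpb2 (0.856) and Tmem9b (0.849). Hpx stood nearest to Tmem176a (0.902), Tmem176b (0.882) and Itm2c (0.783). Tmem176a was also among the genes nearest to Saa2 (0.724, with Col15a1 at 0.684 and Slc13a3 at 0.656) and to Lcn2 (0.625, with Slc13a3 at 0.639 and Akna at 0.607). Hamp stood nearest to Dusp10 (0.718), Zfp512 (0.657) and Ablim1 (0.642), and Serpina3k to Tm2d2 (0.942), Ube2e1 (0.928) and Hao1 (0.923). These values describe likeness over libraries and carry no test.

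**Figure D4:**
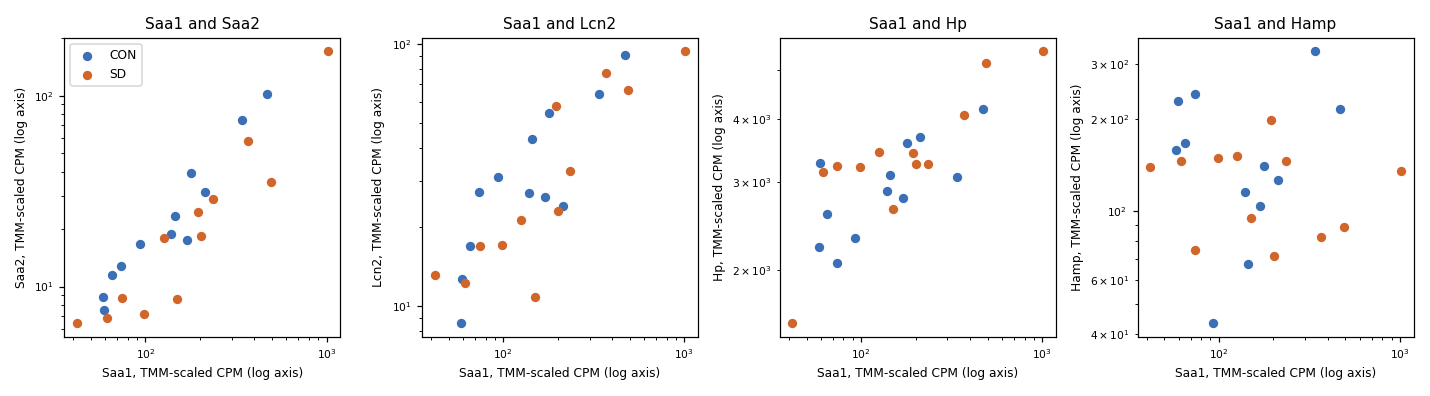
Level of Saa2, Lcn2, Hp and Hamp against that of Saa1 in the 24 liver libraries, as TMM-scaled CPM on log axes, with CON and SD libraries in different colours. Saa2, Lcn2 and Hp rise with Saa1 (r of 0.919, 0.849 and 0.805), while Hamp does not (r of -0.02).

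Other genes of the same roles were then counted in the liver fit averaged over time. For each list below, the shares of all genes called higher and lower were 9.42% and 8.8% under TMM. With library sizes alone they were 1.82% and 19.1%. Of 32 tested genes for other abundant secretory proteins, 19 rose and 0 fell, with a median log2 difference of 0.24 beside 0.01 over all genes, and with library sizes alone 12 rose and 1 fell. The smallest p-values belonged to Hrg (0.42 ± 0.06), a histidine-rich plasma glycoprotein, Rbp4 (0.35 ± 0.05), the retinol carrier, the protease inhibitor Mug1 (0.44 ± 0.07) and Serpina1b (0.34 ± 0.06), an alpha-1-antitrypsin, at adjusted p from 0.000101 to 0.000401 (edgeR). All 4 also passed with library sizes alone. Hrg rose from 760.4 CPM ± 64.2 in CON to 927 CPM ± 88.4 in SD (standard deviation, n = 12).

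Of 29 tested genes for other positive acute phase proteins, 6 rose and 3 fell, with a median log2 difference of 0.14. Serpina3n, a relative of human antichymotrypsin, rose from 410.2 CPM ± 70.7 to 607 CPM ± 233 (standard deviation, n = 12), a log2 difference of 0.66 ± 0.15, and Lrg1 by 0.67 ± 0.16 (edgeR, adjusted p = 0.00290 and 0.00531). Serpina3m and Itih4 rose by 0.33 ± 0.08 and 0.32 ± 0.09 (edgeR, adjusted p = 0.00757 and 0.0105). With library sizes alone 2 rose and 5 fell, Serpina3n and Lrg1 still among those higher (edgeR, adjusted p = 0.0105 and 0.0182), beside the shift of all genes given above.

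Of 21 tested acute phase receptors, kinases and transcription factors, 4 rose and 3 fell under TMM (median log2 difference 0.08). With library sizes alone 1 rose and 6 fell, beside 1.82% and 19.1% of all genes. Il1rap, the accessory chain of the interleukin-1 receptor, rose by 0.35 ± 0.05 and Cebpa by 0.23 ± 0.06, while Nfkbiz, an inducible NF-kappaB cofactor, fell by 0.40 ± 0.08 and the kinase Jak2 fell by 0.16 ± 0.04 (edgeR, adjusted p from 0.000152 to 0.00646). Il1rap, Nfkbiz and Jak2 kept their calls with library sizes alone and Cebpa did not. Among 22 tested genes of hepcidin control and iron handling, 5 rose and 2 fell (median log2 difference 0.06). With library sizes alone the counts were 1 and 6, again beside 1.82% and 19.1% of all genes. Tfr2, the transferrin receptor that senses iron for hepcidin, rose by 0.29 ± 0.06 and Lrp1 by 0.24 ± 0.05, while the BMP effector Smad1 fell by 0.23 ± 0.05 and the heme-degrading enzyme Hmox1 fell by 0.35 ± 0.09 (edgeR, adjusted p from 0.00223 to 0.00709). Lrp1, an uptake receptor that also clears hemopexin bound to heme, did not pass with library sizes alone.

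Of 27 tested genes for folding and export in the endoplasmic reticulum, where secretory proteins are made, 9 rose and 0 fell (median log2 difference 0.18), and 1 and 0 with library sizes alone. P4hb, a disulfide isomerase, rose by 0.32 ± 0.05 and kept its call under both scalings. Calr, Dnajc3 and Pdia4 rose by 0.30 ± 0.06, 0.23 ± 0.06 and 0.26 ± 0.08 under TMM alone (edgeR, adjusted p from 0.00201 to 0.0188).

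Markers of several other cell types in the liver moved with the condition, where 9.42% of all genes were called higher and 8.8% lower under TMM. Of 8 tested neutrophil markers 5 fell and 0 rose, among them, in log2 units, Mmp8, which fell by 1.75, and S100a9, which fell by 1.01 (edgeR, adjusted p = 0.000367 and 0.00261), and the 10 markers summed to 5.44 to 16.04 CPM in CON and 2.14 to 11.2 CPM in SD. Kupffer cell markers, 6 of 7 lower, summed to 824 to 1597 CPM in CON and 569.8 to 939 CPM in SD, and lymphocyte markers, 5 of 6 lower, to 72.8 to 137 CPM in CON and 33.0 to 67.5 CPM in SD. None of the listed neutrophil, Kupffer cell or lymphocyte markers was at 0 in either condition. Liver endothelial markers (0 of 5), cholangiocyte markers (0 of 5) and erythroid markers (0 of 3) were not called under TMM, and 2 of 5 stellate cell markers were higher. With library sizes alone 2 endothelial, 1 cholangiocyte and 0 stellate cell markers were called, those called being lower. In bulk tissue fewer cells of a type and less RNA per cell cannot be told apart. Across the 24 libraries Lcn2, which neutrophils also make, had an r of 0.342 and a rho of 0.374 with the summed neutrophil level in CPM (permutation test, n = 24, adjusted p = 0.140 and 0.138). Within CON r was 0.659, within SD 0.159, and 0.706 after the group means were removed. The part of these cells in the members' levels was not tested.

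Outside the liver the members were rare. In forebrain and cerebellum the mean level of Saa1, Saa2, Orm1, Hamp and Serpina3k was under 0.05 CPM, and in no library of either tissue did Saa1, Saa2 or Orm1 exceed 3 counts. Alb reached 7.31 CPM in a forebrain library (SD CT16 replicate 2) and 4.999 CPM in the cerebellum library of the same label, and Ahsg was also highest in those 2 libraries. In the kidney, CON CT20 replicate 1 stood apart with 91.4 CPM of Alb, 8.81 of Ahsg and 7.22 of Hpx, where the other 23 libraries reached at most 12.6, 0.984 and 1.01 CPM. The excess over the median of the other libraries was 0.132%, 0.110% and 0.112% of the mean liver level of these genes, and whether liver RNA entered that library was not tested.

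Lcn2 was the member with the highest level outside the liver relative to it, at 6.08% of its mean liver CPM in kidney, 1.41% in forebrain and 1.13% in cerebellum. In kidney its CON libraries lay at 1.09, 1.80 and 3.44 CPM and its SD libraries at 1.53, 2.55 and 3.31 CPM (lowest, median and highest). The log2 difference was 0.46 ± 0.14 (edgeR, adjusted p = 0.109), beside 2.3% of all kidney genes called, and DESeq2 called it (adjusted p = 0.0428), beside 3.25% of all genes, as did edgeR without CON CT8 replicate 2. In forebrain the 2 CON CT8 libraries held the most Lcn2, 3.83 and 1.91 CPM, while the other 22 libraries held at most 0.916 CPM, and the averaged log2 difference was -1.26 ± 0.57 (edgeR, adjusted p = 0.772). CON CT8 was also the group with the highest mean Lcn2 in the liver, and in each of the 4 tissues the highest single Lcn2 library was a CON CT8 library. For kidney this rests on the titles, which conflict with the labels. The next library was close in kidney (3.31 against 3.44 CPM) and in cerebellum (0.972 against 1.21 CPM). Over the CON group means the liver level had an r of 0.780 with forebrain, 0.787 with cerebellum and 0.642 with kidney. Over the SD group means r was 0.305, -0.459 and -0.622, and none of these was tested. Over the 12 group means the liver and forebrain levels had an r of 0.578 and a rho of 0.182 (permutation test, n = 12, adjusted p = 0.112 and 0.657), and r was -0.05 without the 2 groups farthest from the median, so it rests on those groups.

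Hp and Orm1 in kidney ranged over 38.5 and 90.3 fold between libraries, from 0.924 to 35.6 CPM and from 0.0601 to 5.43 CPM. Both followed the summed level of the adipocyte markers Adipoq, Cfd, Plin1 and Lep, which ran from 10.5 to 521 CPM. Over the 24 kidney libraries r was 0.976 and rho 0.944 for Hp and 0.970 and 0.979 for Orm1 (permutation test, each adjusted p at most 3.75e-05). Without the 2 libraries farthest from the median r was 0.969 and 0.966, and it was 0.957 to 0.988 within CON and within SD. Haptoglobin and alpha-1-acid glycoprotein are known to be made in fat as well as in liver. The averaged SD difference was -0.40 ± 0.54 for Hp and -0.12 ± 0.65 for Orm1 (edgeR, adjusted p = 0.796 and 0.963).

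**Figure D5:**
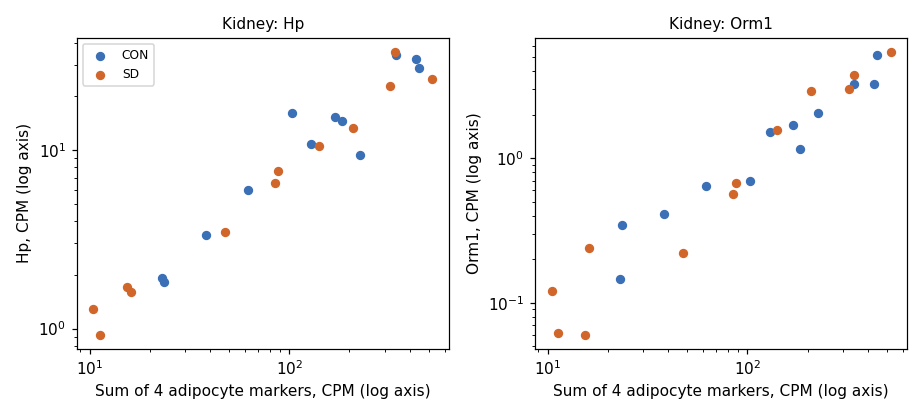
Level of Hp and Orm1 in the 24 kidney libraries against the summed level of 4 adipocyte markers, in CPM on log axes, with CON and SD in different colours. Both genes rise along a line with the marker sum, with r of 0.976 and 0.970, in CON and SD libraries alike.

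Of the 10 members, 6 were tested in kidney, 4 in forebrain and 3 in cerebellum after the filter on low counts, and 0 were called in any of them by edgeR, beside 2.3%, 0.0303% and 0.0% of all genes. At an unadjusted p of 0.05, 1 member passed in kidney, 1 in forebrain (Lcn2 in both) and 0 in cerebellum, where 2811, 1479 and 757 of all genes did. The difference of the SD effect between liver and kidney was called for 0 of the 6 members tested in kidney (edgeR, adjusted p from 0.181 to 0.855, 1 of them, Ahsg, at an unadjusted p of 0.05), beside 6.49% of all genes. Ahsg had a median of 0.235 CPM in kidney, where CON CT20 replicate 1 held 8.81 CPM and no other library more than 0.984 CPM. In DESeq2 its liver minus kidney value was 0.74 ± 0.87 (adjusted p = 0.634), against 1.32 ± 0.60 in edgeR. For Saa1, Saa2, Hamp and Serpina3k, with 3 counts or fewer in 22 to 24 of the 24 kidney libraries, this comparison carries no information on the kidney.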

How the data were processed

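Total RNA was sequenced with a strand-specific protocol after removal of ribosomal RNA. The deposited table holds unnormalised counts of read pairs by gene. The authors obtained them by trimming with Trim Galore, aligning to GRCm38 with HISAT2, keeping mapping quality 60 with SAMtools and counting reverse-stranded pairs with featureCounts. The quality filter drops reads shared by near-identical genes. The table matched the single files in 96 of 96 columns. Symbols came from GENCODE M21 and promoters from RefSeq (7 of 10 members, Orm1, Hp and Serpina3k lacking an entry).

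Groups came from sample titles. SD was compared with CON by edgeR 4.0.16 (quasi-likelihood, TMM, filterByExpr, Benjamini-Hochberg over all genes, R 4.3.3), with time as a factor or with 12 group means, and each tissue by itself. DESeq2 1.42.0 was an alternative. JTK_CYCLE was written in Python 3.11.15 and run on CPM with a 24 h period and 6 phases. Relations across libraries used log2(CPM + 0.1), TMM-scaled between liver members, and 100000 permutations. The fits were tested on simulated data. Named genes were the 10 members, up to 4 called genes of smallest p from each list, and the 3 genes most like each variable member. The members and lists were chosen with earlier results of these data known. Counting error is small beside the spread between libraries at the liver depth.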

Additional observations from a re-analysis of the deposited data

Results flagged for a closer look

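The sleep deprivation effect had opposite signs at CT4 and CT8 for Saa1, Saa2 and Lcn2 in the liver. In plain CPM both SD libraries lay above both CON libraries at CT4 and below both at CT8. Of all genes 10.7% lay above at CT4 and 32.8% below at CT8, and the share doing both was not counted. Alb went the other way in plain CPM, below at CT4 and above at CT8, where 34.8% and 11.3% of all genes lay so. After TMM scaling Alb lay below at 0 times. For Saa1 the SD minus CON value at CT4 exceeded that at CT8 by 4.13 on the log2 scale (SE 0.90). It did so by 4.84 for Saa2 (SE 1.23) and by 3.45 for Lcn2 (SE 1.08). These differences were tested in edgeR after the values had been seen, and 0 members passed over all genes (adjusted p = 0.964 for Saa1, unadjusted 0.000214, and 0.9999 for Saa2 and Lcn2, unadjusted 0.000973 and 0.00497), with 0.0% of all genes called, 4 members and 681 genes at an unadjusted p of 0.05. DESeq2 called 5 genes. Serpina3k differed between these times by 0.15 (SE 0.28). Further differences of this kind were not tested: Saa1 at CT12 exceeded CT8 by 2.496, Saa2 at CT4 exceeded CT16 by 3.309 and Lcn2 at CT4 exceeded CT16 by 3.259. Each rests on 2 libraries per condition and time.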

How the results depend on the processing

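Averaged over time in the liver, 3 members were called under TMM factors, RLE factors, upper quartile factors and DESeq2, and 3 to 3 when any library was left out. Without a filter on low counts 6 were called, beside 3741 of 32589 genes, and without CT4 and CT8 (chosen after seeing the data) 1. With library sizes alone 2 were called, Serpina3k higher and Hpx lower. At single time points, counting each member at each time, the count of 0 became 20 without the filter. There 649, 930, 330, 767, 513 and 1102 of 32589 genes were called at CT4 to CT24. In DESeq2 the count became 2, beside 188, 466, 28, 279, 30 and 472 of 19708 genes. Over all time points together the count of 1 became 0 with library sizes alone, 6 without the filter (beside 2873 of all genes) and 4 in DESeq2. The call for Serpina3k was also lost on leaving out single libraries, as given above. Without the filter the p of Saa2, the member that varied most between libraries, was 2.47e-102, against 0.0338 with it (edgeR, 6 contrasts together). The difference in rhythm went from 0 to 3 members without the filter, beside 409 of all genes (0 to 0 members with a library left out). Time of day within SD went from 0 to 1 in the cosine fit. In kidney the count of 0 became 1 without the filter (beside 1043 of 36128 genes) and 1 in DESeq2, and 0 to 1 with a library left out. The liver and kidney difference went from 0 to 7 without the filter, beside 2033 of 37541 genes. In DESeq2 it went to 1 (Serpina3k, which is near 0 in kidney). Forebrain and cerebellum stayed at 0. The causes were not tested.

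Of 30 named genes, library sizes alone left 19 on the same side of the threshold, took the call from 9, gave it to 1 and turned the sign of Orm1, to -0.0416 (log2). Leaving out CT4 and CT8 took the call from 12. With single libraries left out, the Saa2 difference ran from -0.43 to 0.14 and that of Lcn2 from -0.34 to 0.13. Counts over all genes also moved, at CT8 from 80 to 246 (library sizes alone) or 466 (DESeq2), at CT24 from 47 to 309 or 472, over all times from 702 to 1151 or 2017, for the liver and kidney difference from 1484 to 2915 or 2547, and for JTK_CYCLE on TMM-scaled values from 29 to 0 in CON and from 347 to 135 in SD. 

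Same-numbered libraries of CON and SD deviated together by more than 0.1 in 3 of 6 liver pairs (correlations from -0.17 to 0.25). In kidney, forebrain and cerebellum this held for 4, 3 and 3 of 6 pairs. The correlations there ran from -0.04 to 0.42, from -0.30 to 0.53 and from -0.47 to 0.23. The signs varied within each tissue, so the numbers were not taken to pair the libraries. A replicate block left 3 members called on average over time in the liver, 1 over all time points together and 0 in the other comparisons, and moved the count over all genes from 3592 to 3436.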

Other observations

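SD CT16 replicate 1 was the lowest SD library for Ahsg and for Alb after TMM scaling, at 5942 and 49368 CPM, while replicate 2 of the same group lay at 8879 and 74405 CPM. For the inducible members SD CT4 replicate 1 was the highest of all 24 liver libraries for Saa1 (910.0 CPM), Saa2 (153 CPM) and Hp (4899 CPM), and CON CT8 replicate 2 was the highest for Orm1 (948 CPM), Hpx (8918 CPM) and Lcn2 (95.9 CPM). Hamp was highest in CON CT8 replicate 1, at 342 CPM.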
